A study of Homo sapiens with 17 samples.

Results

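Replication-dependent histone genes encode the linker histone H1 and the core histones H2A, H2B, H3 and H4 that package newly copied DNA. They lie in clusters, most have no intron, and their messenger RNA normally ends a few bases after a short stem-loop instead of in a poly-A tail. The stem-loop binding protein SLBP holds this structure for processing and translation, NPAT under cyclin E and CDK2 drives transcription of the genes in S phase, and the U7 particle with its LSM10 and LSM11 subunits directs the cut. Some of the genes are known to make polyadenylated messages as well, mostly in cells that leave the cycle or differentiate. Poly-A selected RNA therefore holds the tailed fraction of these messages together with any untailed RNA carried through the selection, and it says nothing of their total amount.

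Members were taken by gene symbol. Rows whose symbol began with HIST1H, HIST2H, HIST3H or HIST4H and did not end as a pseudogene numbered 75, of 89 histone cluster symbols and 57820 genes. Of these, 44 had at least 50 expected counts summed over the 17 libraries and were kept, 31 fell short and 7 of those 31 had no count at all. The members were chosen by their summed expected count, so their presence in the libraries is a description and no finding. HIST1H3E with 58 summed counts, HIST1H4I with 58 and HIST1H1B with 52 stood just inside the threshold. HIST1H2AD with 49.5 summed counts, HIST1H2BO with 41.1 and HIST1H3B with 41 stood just outside it. The 44 members comprised 3 H1, 11 H2A, 14 H2B, 8 H3 and 8 H4 genes. The HIST1 cluster on chromosome 6 gave 31 of them, the HIST2 cluster on chromosome 1 gave 11, and HIST3 and HIST4 gave 1 each.

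The libraries came from 2 squamous cell carcinoma lines and asked how SOX2, a transcription factor of squamous epithelium, and an enhancer named e1 in its neighbourhood set gene expression. KYSE140 esophageal cells that stably carried a repressor fused to inactive Cas9 received negative-control guides (NC 1 and 2) or guides to e1 (e1 1 and 2), and this contrast is called e1 repression. KYSE140 cells with active Cas9 received control guides to AAVS1 (control 1) or Chr2.2 (control 2), or SOX2 guides 2, 3 and 4. KYSE140 cells were also treated with DMSO (A and B) or with 0.5 µM of ARV-771 (A and B) for 6 h. ARV-771 is a PROTAC, a molecule that links BET bromodomain proteins to an E3 ligase for degradation. SKMES1 lung cells carried the activator dCas9-VP64 with negative-control guides (NC 1 and 2) or e1 guides (e1 1 and 3), and this contrast is called e1 activation. The guide-carrying cells were selected populations, not clones, and replicates within a group were different guides or lettered cultures. P-values therefore measure the spread between guides or cultures, which may be technical.

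Library totals ran from 7260730 to 15781463 expected counts. SOX2 followed the labels: 365 to 379 TPM (a share of the library's transcripts, corrected for length) in the NC libraries and 120 to 128 TPM under e1 repression, 397 to 428 TPM in knockout controls and 103 to 221 TPM with SOX2 guides, 223 to 236 TPM under DMSO and 9.80 to 10.54 TPM under ARV-771, and 1.53 to 1.68 TPM in SKMES1 NC and 224 to 316 TPM with e1 guides. SOX2 RNA thus remained in the edited cells. With SOX2 guides 2, 3 and 4 it was 102.5, 125 and 221 TPM, and guide 4 stood apart: its counts differed from those of guides 2 and 3 by a chi-square of 13.39 and 6.78 for each degree of freedom, and these from each other by 2.87. The 9 squamous markers, keratins and junction genes among them, summed to 7463 to 7515 TPM in NC and 13009 to 13190 TPM under e1 repression. They summed to 9010 to 9138 TPM in knockout controls and 36938 to 45860 TPM with SOX2 guides. Keratins carried these sums, and the 9 markers did not move one way: under e1 repression 5 were above their controls, 3 (TP63, PKP1 and EPCAM) were below and 1 overlapped, and with SOX2 guides 7 were above and 2 below. TP63, a transcription factor that defines squamous cells, had 153 and 157 TPM in NC and 94.6 and 98.01 TPM with e1 guides, and 167 and 182 TPM in knockout controls against 56.9, 64.3 and 78.5 TPM in knockout. In SKMES1 the same sum was 120.7 TPM in NC 1 and 1289 TPM in NC 2, so that NC 2 stood apart, and it was 109 and 269 TPM in the e1 libraries. Of the 9 leukocyte, endothelial and fibroblast markers, 8 were in the tables and summed to 0.1 to 5.2 TPM in KYSE140 and 5.2 to 8.3 TPM in SKMES1. In SKMES1 CD3E, CDH5 and DCN were at 0, CD14 at 2.99 to 5.84 TPM and PDGFRB at 1.37 to 2.15 TPM. In KYSE140 CD3E reached 0.16, CDH5 0.15 and DCN 3.92 TPM, the last in knockout control 2.

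The element that sets these genes apart can be read from the genome. Of the 44 members, 42 were matched to the GENCODE v44 annotation lifted to GRCh37, 27 by identifier and 15 by symbol, and 40 of the 42 were annotated as coding. HIST2H2BD and HIST2H2BC were annotated as pseudogenes although their symbols do not say so. A 16-base stem-loop with arms of 6 bases around a 4-base loop was sought within 100 bases after the stop codon. It had to begin with GG, end with CC, open its loop with TT and pair its arms with at most 1 mismatch. Such a match was found in 39 of the 40 coding members and in 58 of 20008 other coding genes, or 0.29%. All coding genes not matched to a member were taken as other, histone genes under the count threshold included. How many of the 58 were histone genes was not counted. HIST1H3E was the coding member in which no such match was found in this window. The loop began 22 to 67 bases after the stop codon, with a median of 36. The sequences below show the 6 forms found among the members, by genes that the results turn on, with HIST2H2BE as the head-to-head neighbour of HIST2H2AC. They read 5′ to 3′ on the gene's strand from GRCh37, and the capitals mark the stem-loop.
HIST1H2BK: ccaaaGGCTCTTTTAAGAGCCacttaaatt
HIST1H2AC: ccaaaGGCTCTTTTCAGAGCCcccctaccg
HIST2H2BE: ccaaaGGCTCTTTTCAGAGCCacccaccta
HIST2H2AC: ccaaaGGCTCTTTTTAGAGCCacccaagtt
HIST1H4H: ccaaaGGCCCTTTTCAGGGCCgcccacttt
HIST2H4A: ccaaaGGCCCTTTTTAGGGCCgaccacttg
HIST1H2AG: ccaacGGCTCTTTTCAGGGCCacccacgtc

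The form in HIST1H2AC and HIST2H2BE was shared by 24 members and that of HIST1H2BK by 5. That of HIST1H4H was found in 5 and that of HIST2H4A in 3. HIST2H2AC and HIST1H2AG each carried a form that no other member had. In GRCh37 the loop of HIST1H2BK lay at chr6:27114145-27114160 on the minus strand, in the last bases of the annotated gene, chr6:27114140-27114634. That of HIST1H2AC lay at chr6:26124897-26124912 on the plus strand. There the annotated gene ran on to 26139344, so its longest transcript ended 14432 bases past the loop. Such an end more than 100 bases past the loop was annotated for 15 members, and for the other 24 with a loop every annotated end lay within 100 bases. The canonical poly-A signal AATAAA occurred in the 500 bases after the loop in 9 of 39 members, or 23.1%. In other coding genes it occurred in 37.5%, in a window of the same length that began 50 bases after the stop codon. A match is a description of the letters and does not show where a message ended.

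Promoters of the members held short motifs more often than most promoters. RefSeq windows from 250 bases before to 50 after the start (GRCh38.p14) were found for 40 members, and motifs were searched on both strands with overlaps allowed. The octamer ATTTGCAT, which POU2F1 (OCT1) binds in H2B promoters, was in 17 of 40 members (42.5%) and in 1.8% of 27305 promoters. It was in 9 of 12 H2B and 7 of 11 H2A promoters, in 1 of 7 H3 promoters and in none of the 7 H4 and 3 H1 promoters. Windows of genes that start head to head overlap, and the same octamer site was then counted for both. This held for HIST1H2AC with HIST1H2BC, HIST1H2AG with HIST1H2BJ, HIST1H2AE with HIST1H2BG and HIST2H2AC with HIST2H2BE. It also held for HIST1H3D, the H3 gene, with HIST1H2BF. The 17 members therefore do not hold 17 separate sites. TATAAA was in 24 members (60.0%) against 11.95% of all promoters, and CCAAT in 34 (85.0%) against 35.7%. In the pair of H2A promoters below, shown because their fold changes under SOX2 knockout had opposite signs, that of HIST2H2AC from few counts, capitals mark the octamer and TATAAA on either strand, and the windows are chr6:26123922-26124221 for HIST1H2AC and chr1:149886668-149886967 for HIST2H2AC, both on the plus strand of GRCh38.
HIST1H2AC: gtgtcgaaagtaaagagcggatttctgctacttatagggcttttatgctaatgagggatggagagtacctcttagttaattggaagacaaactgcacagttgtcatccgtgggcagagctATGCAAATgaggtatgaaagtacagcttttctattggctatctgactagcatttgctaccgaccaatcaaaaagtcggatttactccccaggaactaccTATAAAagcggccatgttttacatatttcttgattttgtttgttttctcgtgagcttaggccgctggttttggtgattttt
HIST2H2AC: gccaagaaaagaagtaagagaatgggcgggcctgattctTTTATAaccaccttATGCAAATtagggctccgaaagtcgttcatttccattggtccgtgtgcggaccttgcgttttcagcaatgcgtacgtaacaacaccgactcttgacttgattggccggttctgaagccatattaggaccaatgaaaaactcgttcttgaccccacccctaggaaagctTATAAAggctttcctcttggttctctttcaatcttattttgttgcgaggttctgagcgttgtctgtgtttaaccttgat

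The TATAAA nearest the start began 31 bases before it in HIST1H2AC and 29 bases before it in HIST2H2AC. The octamer, on the reverse strand as ATGCAAAT, began 130 bases before the start in HIST1H2AC and 197 bases before it in HIST2H2AC. Both genes thus held the same 2 motifs, at other distances for the octamer.

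The members gave a small part of each library. Their expected counts made up between 0.0105% (SKMES1 NC 2) and 0.0726% (SOX2 guide 2) of a library's total. Over all libraries they summed to 51391 counts, of which the 5 highest members held 70.6%, and 20 members had under 200 summed counts. Because RSEM shares reads between near-identical copies, 18 members had whole counts in every library and 26 did not. HIST1H2BK, HIST2H4A and HIST2H4B had split counts in all 17 libraries, and values of such genes are uncertain by what their copies could have taken.

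**Figure D1:**
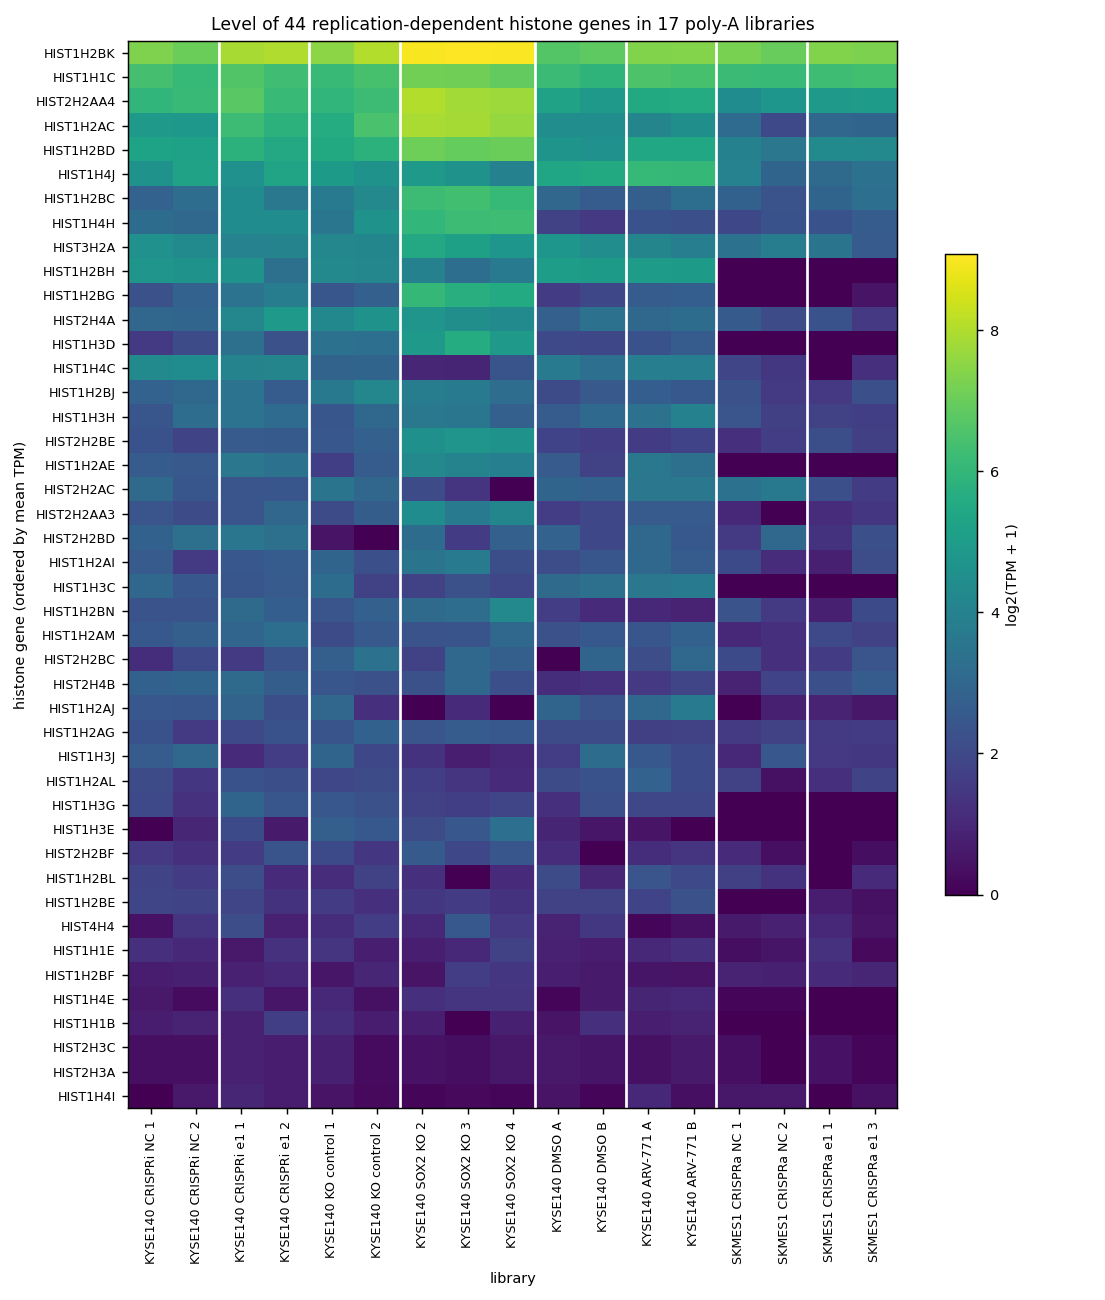
Level of each of the 44 members (rows, ordered by mean TPM) in each of the 17 libraries (columns, white lines between groups), coloured by log2(TPM + 1). HIST1H2BK is the brightest row, the 3 SOX2 knockout columns are brightest in the upper rows, and the 4 SKMES1 columns are darkest, with 7 members at 0 in all of them.

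The summed level separated the knockout from its controls. It was 640 TPM in control 1 and 820 TPM in control 2, against 1781, 1747 and 1634 TPM with SOX2 guides 2, 3 and 4. Under e1 repression it was 859 and 772 TPM, against 584 and 556 TPM in the NC libraries, and the groups did not overlap. ARV-771 libraries reached 629 and 640 TPM against 466 and 460 TPM under DMSO. In SKMES1 the sum was 356 and 311 TPM with NC guides and 362 and 368 TPM with e1 guides. Ratios of the group means were 2.36 for SOX2 knockout, 1.43 for e1 repression, 1.37 for ARV-771 and 1.09 for e1 activation. TPM is relative to all other RNA of a library, and in bulk cultures a change in the share of cells that hold a message cannot be told apart from a change in the message per cell.

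By class, H2B members gave the largest share of the summed TPM in every group. In the NC libraries H2B made up 43.7% ± 1.5 (SD, n = 2), H2A 25.9% ± 0.0, H1 13.4% ± 1.4, H4 12.7% ± 2.3 and H3 4.3% ± 0.7 of it. With SOX2 knockout the H2A sum went from 190 ± 34.1 TPM (n = 2) to 546 ± 57.8 TPM (n = 3), a ratio of 2.87. The H2B sum went from 348 ± 80.1 to 856 ± 7.3 TPM, a ratio of 2.46. H1, H3 and H4 had ratios of 1.72, 1.62 and 1.62. The mean H1, H3 and H4 shares were therefore lower in knockout than in control cells while the H2A share was higher, at 31.7% ± 2.1 in knockout. The H3 share, 3.4% ± 0.6 against 5.0% ± 1.9, differed by less than the controls' spread. Under e1 repression the class ratios ran from 1.17 (H1) to 1.53 (H2B).

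**Figure D2:**
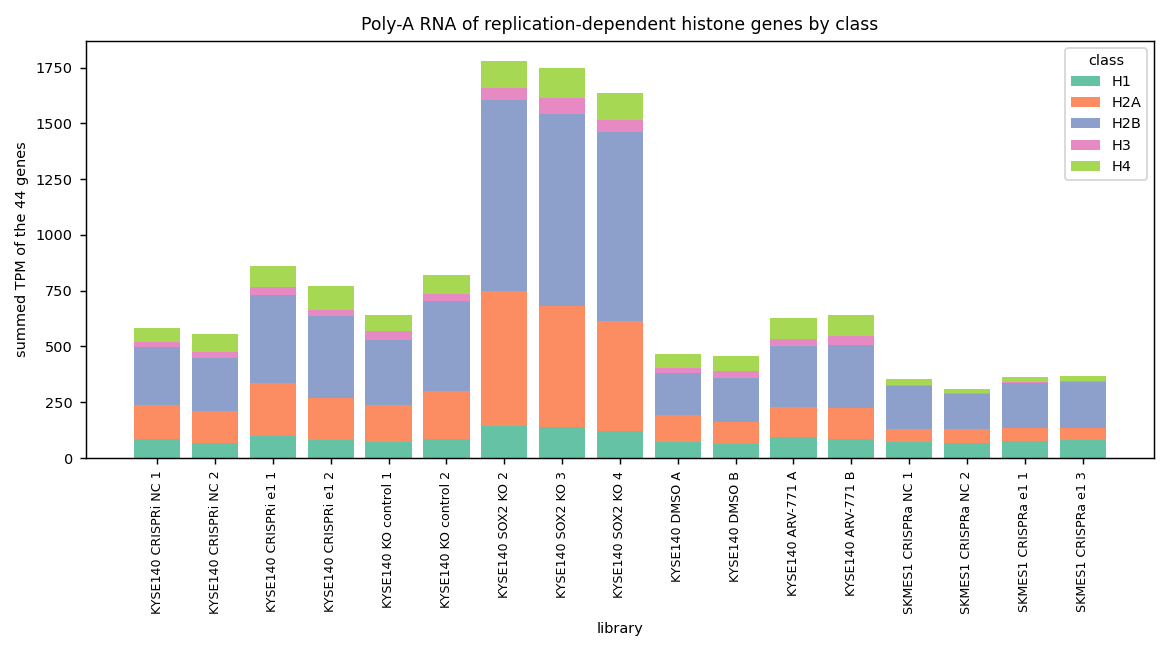
Stacked bars of the summed TPM of the 44 members in each of the 17 libraries, with a colour for each histone class (H1, H2A, H2B, H3 and H4). The H2A and H2B sums are highest in the 3 SOX2 knockout libraries, with mean sums of 546 and 856 TPM, and the H3 sum is the smallest in every group.

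A few genes carried these sums. HIST1H2BK, an H2B gene, had the highest mean level, 231 TPM over the 17 libraries, and held between 21.5% and 45.4% of the members' summed TPM in a library. HIST1H1C, the gene of linker histone H1.2, followed with 86.9 TPM and HIST2H2AA4, an H2A gene with an adjacent copy, with 82.5 TPM. HIST1H2AC stood at 64.6 TPM, HIST1H2BD at 50.1 TPM and the H4 gene HIST1H4J at 29.2 TPM, before HIST1H2BC with 20.6 and HIST1H4H with 19.5 TPM. The order differed by line. In SKMES1, HIST1H2AC had 2.98 to 8.07 TPM in its 4 libraries, below its lowest KYSE140 value of 16.5 TPM, whereas HIST1H2BK at 124 to 164 TPM lay within its KYSE140 range. HIST1H3D, HIST1H2BH, HIST1H2AE, HIST1H3C, HIST1H3G, HIST1H3E and HIST1H1B were the 7 members at 0 in all 4 SKMES1 libraries, where a library's floor of 3 counts corresponded to 0.190 to 0.333 CPM. The lines also differed in constructs, and no test was made between them.

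**Figure D3:**
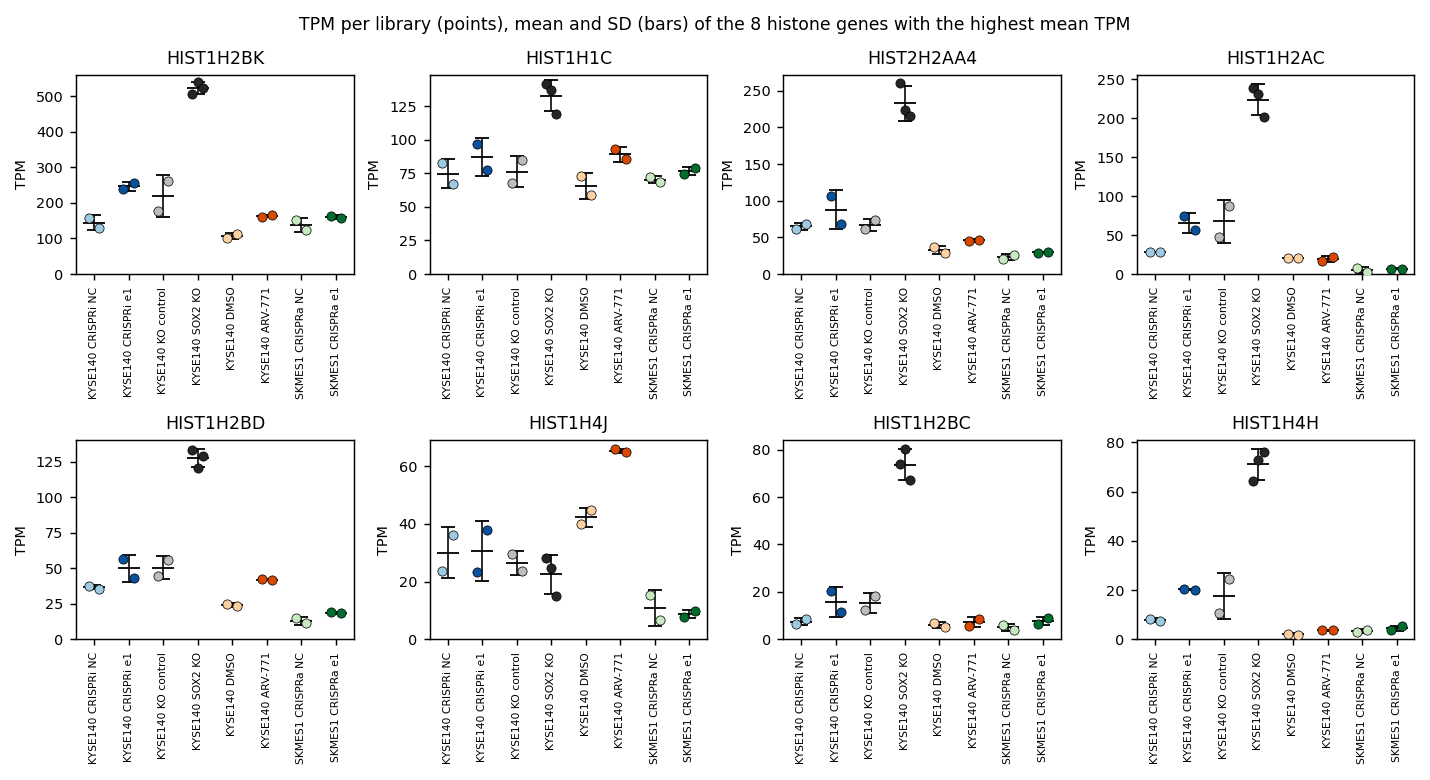
TPM of the 8 members with the highest mean level, in a panel each, with points for libraries and the mean and SD of each group. Apart from HIST1H4J, each gene has its highest values in the 3 SOX2 knockout libraries.

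e1 repression raised a small group of members, led by HIST1H2AC and HIST1H2BK. Of the 44 members, 26 had enough counts to be tested, and 7 rose and 1 fell by edgeR's quasi-likelihood test (called where the p-value adjusted after Benjamini and Hochberg was under 0.05 and the fold exceeded 1.5). Among all 13792 genes tested, 9.30% rose and 10.7% fell. By mitochondrial scaling, which moved the median of all genes to 0.353, 13 members rose and none fell, while 3368 genes rose and 718 fell. Of the 26, 5 members passed the count filter only through the e1 libraries and 1 only through the NC libraries. HIST1H3D, called higher, was among the former, and HIST1H3J, called lower, was the latter. Without the filter, 35 of the 44 members had a positive log2 fold change, with a median of 0.54 against 0.013 for all genes in that fit.

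HIST1H2AC had 28.2 and 27.8 TPM in the NC libraries and 74.3 and 56.1 TPM in the e1 libraries. Both e1 libraries lay above both controls, and the log2 fold change was 1.36 ± 0.11 (SE, adjusted p = 9.26e-08). HIST1H2BK had 159 and 129 TPM in NC and 238 and 255 TPM with e1 guides, again without overlap, for 0.66 ± 0.08 (adjusted p = 4.8e-06). The H4 gene HIST1H4H had 8.33 and 7.35 TPM in NC and 20.4 and 20.2 TPM with e1 guides, and rose by 1.24 ± 0.21 (adjusted p = 0.000143). HIST2H4A, another H4 gene, had 6.90 and 6.76 TPM against 17.5 and 28.1 TPM. Its log2 fold change was 1.30 ± 0.19 (adjusted p = 4.89e-05), and 0.86 ± 0.14 when its counts were summed with those of its copy HIST2H4B.

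The other called members were low. HIST1H2BC had 6.29 and 8.51 TPM in NC and 20.2 and 11.4 TPM with e1 guides (log2 fold change 1.15 ± 0.35, adjusted p = 0.0137). HIST1H3D, an H3 gene, had 1.94 and 3.24 TPM in NC and 9.24 and 3.72 TPM with e1 guides (1.53 ± 0.49, adjusted p = 0.0188). HIST1H2BN had 4.02 and 4.06 TPM in NC and 7.82 and 5.63 TPM with e1 guides (1.15 ± 0.38, adjusted p = 0.0213). In each of these the e1 libraries were above the controls in TPM, but for HIST1H2BC and HIST1H3D the pair of e1 libraries was far apart. For HIST1H2BN the e1 libraries held 29.9 and 32.8 expected counts, and its RSEM length was 802 and 1038 bases in them. HIST1H3J, the member that fell, rested on 11 and 16 expected counts in NC and 2 and 4 with e1 guides (−1.87 ± 0.67, adjusted p = 0.0334), 8 alternative analyses lost the call, and a mean of at least 50 counts left the gene untested. HIST1H1C had 82.4 and 67.1 TPM in NC and 97.0 and 77.1 TPM with e1 guides, which overlap, and was not called (0.24 ± 0.13, adjusted p = 0.153). HIST1H4J was not called either (0.07 ± 0.34, adjusted p = 0.891). Without NC 2 the count of called members was 4, and HIST1H2BK was no longer among them at 0.57. DESeq2 called 4 of the 8, HIST1H2AC, HIST1H2BK, HIST2H4A and HIST1H4H.

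Genes that handle histone messages and histones were mostly under the fold threshold for e1 repression. Of 25 tested genes for stem-loop processing and histone transcription, only ZNF473, a zinc-finger protein of the U7 cleavage complex, rose (0.75 ± 0.10) and none fell, whereas 4 rose by mitochondrial scaling. SLBP had 69.0 and 76.0 TPM in NC and 68.2 and 65.5 TPM with e1 guides (0.002 ± 0.073). No call was made among the 10 tested replication-independent histones, most of which end in a poly-A tail and are made through the cycle, nor among 18 histone chaperones, where mitochondrial scaling called 1 of each higher. An adjusted p under 0.05 with a fold under the threshold was found for 8 of the 10, 7 of them lower, H2AFY2 among them at −0.58 ± 0.08. The same held for 10 of the 18, 7 of them lower. Of all 13792 genes, 6102 had an adjusted p under 0.05 at any fold, 3044 of them lower. Of 26 S phase genes, 1 fell and none rose. The keratin-led marker sum was higher and TP63 and EPCAM were lower in the same e1 libraries, and their part in the members' change was not tested.

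SOX2 knockout raised more members and by more. Of 29 members tested, 16 rose and 1 fell, where 16.3% of all 13978 genes tested rose and 13.4% fell. By library size 14 members rose and 1 fell, while 1703 genes rose and 2999 fell. Through the knockout libraries alone 8 members passed the count filter, and 1 passed through the controls alone. HIST1H2BG, HIST1H2AE, HIST2H2BD and HIST2H2BF, all counted among the 16, were thus let in by their knockout values. HIST2H2AC, the member that fell, was let in by its control values. Without the filter 28 of the 44 members had a positive and 16 a negative fold change, with a median of 0.48 against 0.07 for all genes, so the members did not move as a block. Without SOX2 guide 4, which stood apart, 16 members were called, 14 of them among the 17, and HIST1H2BN, HIST2H2AC and HIST2H2BD were no longer called.

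HIST1H2BK had 178 and 262 TPM in the controls and 507, 539 and 523 TPM with SOX2 guides. All 3 knockout libraries lay above both controls (1.52 ± 0.09, adjusted p = 4.47e-08). HIST1H2AC had 48.0 and 87.3 TPM in the controls and 239, 231 and 201 TPM in knockout (1.85 ± 0.15, adjusted p = 1.08e-06). The controls were far apart, and the knockout libraries still stood clear of both. HIST1H2BC, which starts head to head with HIST1H2AC, had 12.3 and 18.4 TPM in the controls and 74.0, 80.2 and 67.0 TPM in knockout (2.49 ± 0.20, adjusted p = 7.12e-07).

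HIST2H2AA4 had 61.2 and 73.3 TPM in the controls and 260, 224 and 215 TPM in knockout, a log2 fold change of 2.02 ± 0.13 (adjusted p = 1.47e-07). HIST1H2BD had 44.8 and 56.1 TPM against 133, 120 and 129 TPM (1.56 ± 0.12, adjusted p = 4.21e-07). HIST2H2BE, an H2B gene whose annotated transcript runs 1729 bases past its loop, had 4.55 and 5.90 TPM against 22.3, 25.5 and 23.9 TPM (2.41 ± 0.15, adjusted p = 6.73e-08). In all of these the groups were apart and the 3 guides gave close values. HIST1H4H had 10.8 and 24.3 TPM in the controls, the widest control pair among them, and 64.1, 72.8 and 76.1 TPM in knockout (2.44 ± 0.14, adjusted p = 4.76e-08).

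HIST1H2BG, an H2B gene, passed the count filter through the knockout libraries alone. It had 4.34 and 5.82 TPM in the controls, from 7 expected counts in each, and 65.0, 51.8 and 45.8 TPM in knockout, from 151, 65 and 77 counts (3.64 ± 0.33, adjusted p = 2.4e-06). In SKMES1 it was at 0 in 3 of 4 libraries. HIST2H2AC was the member that fell, from 10.2 and 6.93 TPM in the controls to 3.16, 1.66 and 0.00 TPM in knockout (−2.07 ± 0.76, adjusted p = 0.0384). It rested on 15.96 and 8.06 expected counts in controls and 7.10, 2.02 and 0.00 in knockout, and DESeq2 did not call it. Of the 5 fits that left out 1 library, 2 tested it without a call and 3 had too few counts to test it.

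The remaining 8 members that rose were HIST1H3D, HIST1H1C, HIST2H2AA3, HIST1H2AE, HIST3H2A, HIST2H2BD, HIST1H2BN and HIST2H2BF, named here after their values were seen. HIST1H1C had 67.9 and 84.5 TPM in the controls and 141, 137 and 119 TPM in knockout, the smallest change among the abundant members that rose (1.02 ± 0.13). The pseudogene HIST2H2BD rested on 1 rounded count over both controls against 38 over the 3 knockout libraries, a ratio per library total of 20.4 with an exact 95% interval of 3.45 to 827 that covers counting error only. HIST1H4J had 29.5 and 23.6 TPM in the controls and 28.02, 24.6 and 15.03 TPM in knockout, which overlap (−0.03 ± 0.36, adjusted p = 0.961). HIST1H2AG (0.08 ± 0.22) and HIST1H2BJ (−0.02 ± 0.27) were likewise not called.

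**Figure D4:**
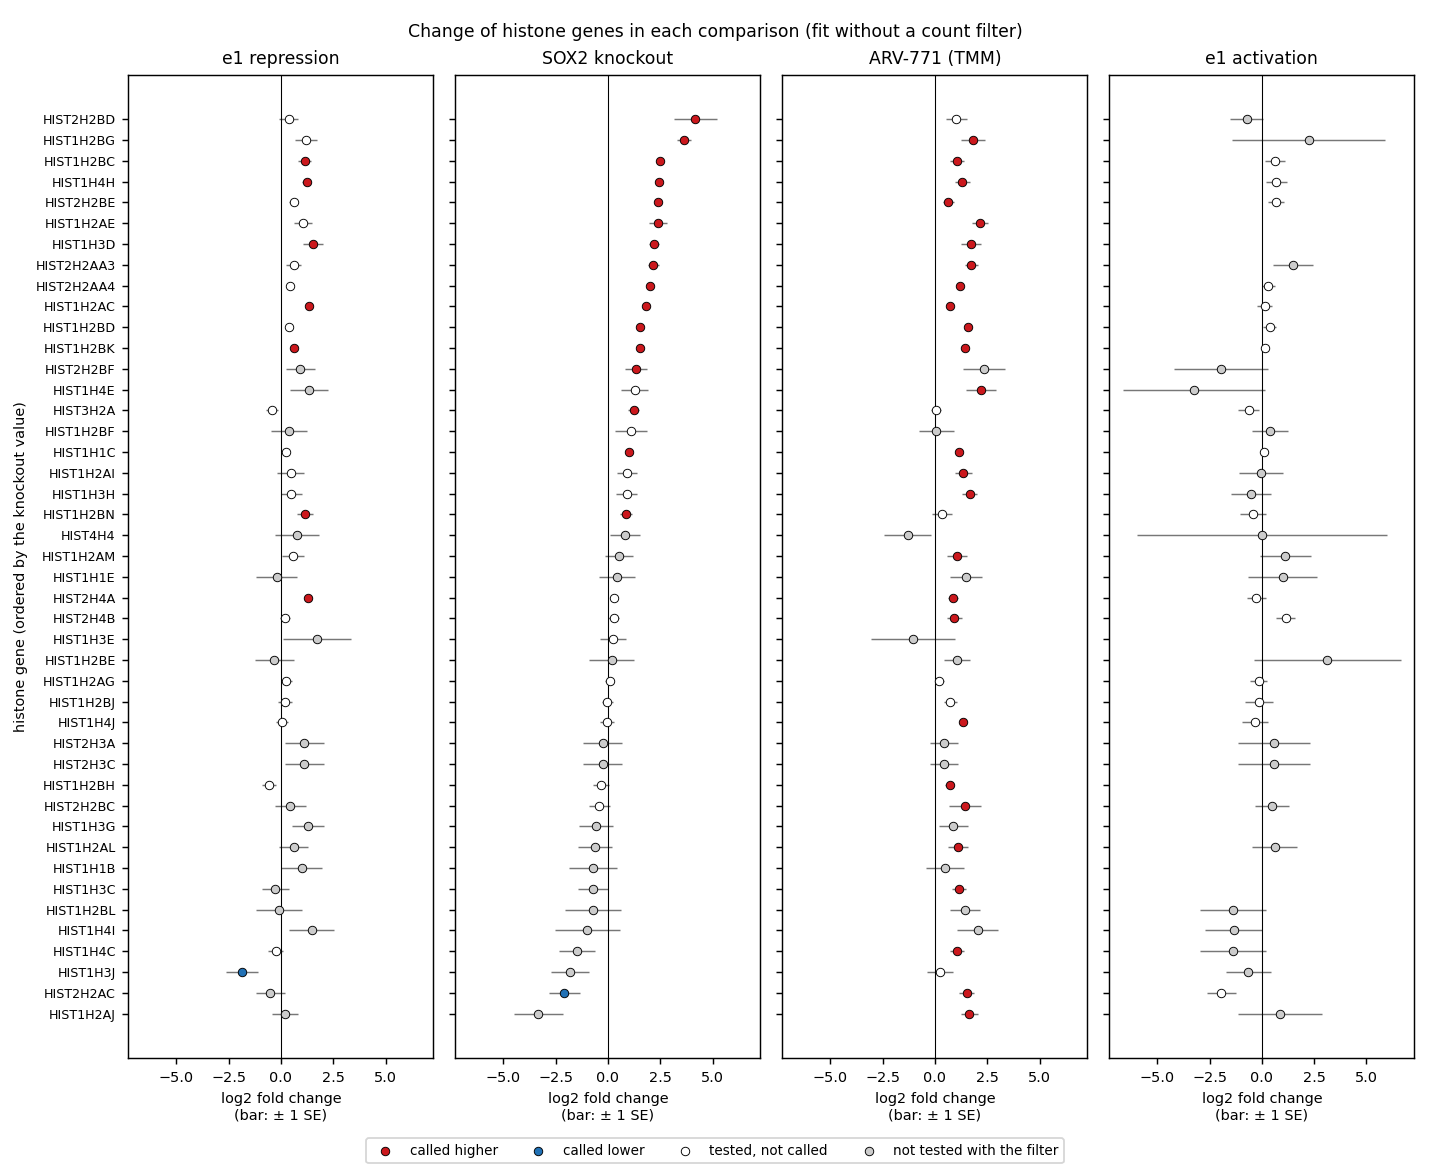
Log2 fold change of each of the 44 members in the 4 comparisons, from the fit without a count filter, with bars of 1 SE and fill colours for the calls made with the filter. The 16 members called higher under SOX2 knockout sit to the right of 0, HIST2H2AC is called lower there, and no member is called under e1 activation.

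S phase genes went down in the same libraries in which these histone messages rose. Of 26 S phase genes tested under SOX2 knockout 19 fell and none rose, with a median of −0.83 against −0.006 for all genes, and under library-size and mitochondrial scaling 25 and 18 fell. GINS2 and MCM2, parts of the replicative helicase, fell by 1.12 and 1.00, and MCM7 by 0.85 on the log2 scale. Of 10 replication-independent histones 4 fell and none rose: H2AFZ, which encodes the variant H2A.Z, by 0.93, H2AFX by 0.84, H2AFY2 by 0.78 and the centromeric CENPA by 0.65. Of 18 chaperones 7 fell, among them NASP (−0.90 ± 0.08) and ASF1B (−0.78 ± 0.08), which carry new H3 and H4, HJURP (−0.81) and SSRP1 (−0.62). Of 25 stem-loop and transcription factors, ZCCHC6, a terminal uridyltransferase, rose by 1.14 and cyclin E2 (CCNE2) fell by 0.79. SLBP, named after its value was seen, had 71.3 and 78.2 TPM in the controls and 46.4 to 47.6 TPM in knockout, a difference (−0.39 ± 0.08, adjusted p = 0.00163) under the fold threshold. The keratin-led marker sum was higher and TP63 and EPCAM were lower in these 3 libraries too, and the part of any of these changes in the members' values was not tested.

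The response to SOX2 knockout was set beside that to e1 repression, which differ in cells, constructs and controls. HIST1H2AC, HIST1H2BC, HIST1H2BK, HIST1H2BN, HIST1H3D and HIST1H4H rose in both. These 6 were 85.7% of the 7 that rose under e1 repression and 37.5% of the 16 that rose under knockout. The overlap among all genes was not counted, so these shares cannot be judged against it. The difference between the fold changes was tested as an interaction in 1 fit over the 9 libraries. Of 34 members tested, 11 had a lower and 1 a higher log2 fold change under e1 repression than under knockout, against 8.37% lower and 8.21% higher among all 14455 genes tested. By mitochondrial scaling 3 members were lower and 2 higher, beside 436 and 1681 of all genes, and by library size 11 and 2, beside 902 and 1883. HIST1H2BK differed by −0.84 ± 0.12 (adjusted p = 0.00014) and HIST2H2BE by −1.77 ± 0.27 (adjusted p = 0.000256). HIST1H2BD, HIST2H2AA4, HIST1H4H and HIST1H2BG also had lower fold changes under e1 repression. HIST1H2AC, with 1.36 and 1.85, was not called in this test. SOX2 itself differed by −0.27 ± 0.28 (adjusted p = 0.512).

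Knockout changes were set beside the annotated 3′ end, which the choice of members did not use. Among the 15 members with an annotated end more than 100 bases past the loop, the median log2 fold change without a count filter was 1.24, with a range of −0.03 to 2.49, and 9 rose and none fell. Among the 24 with every annotated end near the loop the median was −0.25, with a range of −3.33 to 2.38, and 5 rose and 2 fell. All 23957 genes in that fit had a median of 0.07, and 2481 of them rose and 2022 fell. HIST1H2BK and HIST1H1C, with their single annotated end at the loop, were among the 5 that rose, although the deposited table counts 2 transcripts for HIST1H2BK. Under e1 repression the medians were 0.61 and 0.45, beside 0.013 for all genes. Under ARV-771 they were 0.94 and 1.18 with trimmed-mean (TMM) scaling, beside 0.001 for all genes. With the filter, 13 of the 15 but 11 of the 24 were tested under knockout, so the second median rests largely on low members. The grouping follows GENCODE v44, while the counts rest on the authors' annotation, where some of the 24 were longer. HIST1H2AG had 2239 bases there, against a v44 gene of chr6:27100822-27101314. HIST2H3A and HIST2H3C had 1656 bases, HIST1H4E 1409 and HIST1H4I 1343, also more than their v44 genes. Which members had distant ends in the counted annotation is therefore not known. The medians are descriptions with no test, and annotation depends on where ends have been seen before.

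**Figure D5:**
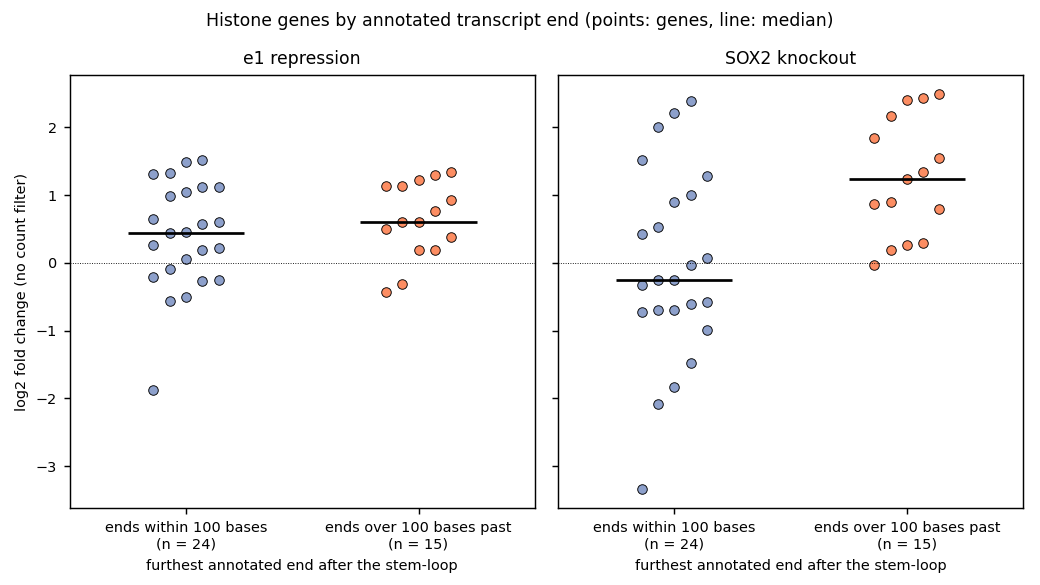
Log2 fold change under e1 repression and under SOX2 knockout (fit without a count filter, a point for each gene, a line for the median). Members with a GENCODE v44 end more than 100 bases past the stem-loop (15) stand beside those whose v44 ends all lie within 100 bases of it (24). The authors' annotation, used for the counts, differs for some of the 24. The knockout medians are 1.24 and −0.25, with ranges that overlap from −0.03 to 2.38, and the e1 repression medians are 0.61 and 0.45.

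Several members start head to head with a neighbour. HIST1H2BC and HIST1H2AC start 219 bases apart on chromosome 6 and both rose under knockout, by 2.49 and 1.84 in the fit without a count filter. HIST2H2BE and HIST2H2AC start 236 bases apart on chromosome 1, and there HIST2H2BE rose by 2.40 whereas HIST2H2AC was at −2.08, from few counts and with a call that each left-out library removed. HIST1H2BJ and HIST1H2AG, 248 bases apart, were at −0.03 and 0.08. Within the second pair HIST2H2BE has the distant GENCODE v44 end and HIST2H2AC ends 5 bases past its loop. In GENCODE v44 the third pair is annotated alike, with HIST1H2BJ ending up to 6424 bases past its loop and HIST1H2AG 5 bases. In the counted annotation it is not, since HIST1H2AG had 2239 bases there and HIST2H2AC 437. In the first pair both have distant v44 ends, up to 37155 bases for HIST1H2BC and 14432 for HIST1H2AC. The part of the ends in these changes was not tested. Partners in these pairs held the same octamer site, because their promoter windows overlapped. In GRCh38 the windows were chr6:26123877-26124176 for HIST1H2BC and chr6:26123922-26124221 for HIST1H2AC. They were chr1:149886633-149886932 for HIST2H2BE and chr1:149886668-149886967 for HIST2H2AC. Over members with a promoter window, the knockout median was 1.11 for the 17 with an octamer and 0.43 for the 23 without, beside 0.07 for all genes.

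ARV-771 raised members relative to other genes, and their sign depended on the scaling. Under TMM scaling, 26 of 32 tested members rose and none fell, while 21.2% of 13500 genes rose and 31.7% fell. Scaling shifted all genes: library size moved the median of all genes from −0.044 to −0.50, and the 13 mitochondrially encoded protein genes to −1.04. By library size 14 of 32 members rose and none fell (2.82% of genes rose and 45.0% fell), and by mitochondrial genes 3 rose and 2 fell (0.652% rose and 66.6% fell). The members' log2 fold changes were positive in 32, 28 and 22 of 32 under the 3 scalings in that order. HIST1H2BD, HIST2H2AA3 and HIST1H2AE rose under all 3, the last from 15 and 7 expected counts under DMSO. Of the 3 scalings, mitochondrial genes alone called HIST1H2AG and HIST3H2A lower, by 0.75 and 0.91, and limma on log2(TPM + 1) called HIST3H2A lower as well (−0.61). Of the 32, 10 passed the count filter only through the ARV-771 libraries. HIST1H2AE was one of these 10. HIST1H3D, HIST1H2BG, HIST1H2AI, HIST2H2BC, HIST1H2AM, HIST1H2AJ and HIST1H4E, also called higher under TMM, were others.

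HIST1H2BK had 100.4 and 112 TPM under DMSO and 161 and 166 TPM under ARV-771, without overlap. It rose by 1.45 ± 0.07 under TMM scaling (adjusted p = 1.05e-14) and also by library size, whereas by mitochondrial scaling its fold was under the threshold. HIST1H2BD had 25.2 and 23.3 TPM under DMSO and 42.2 and 41.7 TPM under ARV-771, and rose by 1.63 ± 0.15 under TMM, 1.17 by library size and 0.64 by mitochondrial genes. HIST1H1C had 72.7 and 58.8 TPM under DMSO and 92.7 and 85.2 TPM under ARV-771 (TMM 1.17 ± 0.10, library size 0.71, mitochondrial 0.17 and not called). HIST1H4J, which was called under neither e1 repression nor knockout, had 40.0 and 44.7 TPM under DMSO and 65.9 and 64.9 TPM under ARV-771 (TMM 1.39 ± 0.19, library size 0.93, mitochondrial 0.39 and not called). HIST2H2AA4, HIST1H2AE and HIST2H2AA3 rose under TMM by 1.22, 2.18 and 1.77, and by mitochondrial genes they were at 0.23, 1.18 and 0.78, the first not called. HIST1H2AC had 21.0 and 21.0 TPM under DMSO and 16.5 and 21.9 TPM under ARV-771, so the groups overlapped in TPM. Its call depended on the scaling, with 0.76 ± 0.15 under TMM, no call by library size and −0.24 by mitochondrial genes.

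SOX2 also fell under ARV-771 (−3.77 ± 0.07). Of 25 stem-loop and transcription factors 11 fell under TMM and 3 rose, 13 fell and none rose by library size, and 20 fell and none rose by mitochondrial genes, beside the 31.7%, 45.0% and 66.6% of all genes that fell under these scalings. CSTF2T and ZNF473, both of the cleavage machinery, fell by 2.58 and 2.65, and cyclins E1 and E2 (CCNE1 and CCNE2) by 3.06 and 1.70 on the log2 scale under TMM. NPAT, named after its value was seen, had 6.90 and 7.26 TPM under DMSO and 0.39 and 0.47 TPM under ARV-771 (−2.95 ± 0.21). Of 10 replication-independent histones 4 rose under TMM, the H3.3 gene H3F3A (1.02) and H2AFZ (0.78) among them, and 1 fell, but by library size none rose and 2 fell, and by mitochondrial genes 4 fell, with H3F3A at 0.02 and H2AFZ at −0.22. Of 18 chaperones 5 rose and 5 fell under TMM, whereas none rose and 6 fell by library size and 11 fell by mitochondrial genes. HJURP, which loads CENPA, fell by 1.64 under TMM. Of 26 S phase genes 9 rose and 5 fell under TMM, against 0 and 9 by library size and 0 and 14 by mitochondrial genes, and GINS3 fell by 1.92 under TMM. At 6 h, how much of each change is new transcription and how much is RNA already made cannot be told apart.

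e1 activation in SKMES1 gave no called member, though SOX2 rose by 7.34 ± 0.26 on the log2 scale. Of 16 members tested none passed, where 0.188% of 14859 genes passed in either direction, and edgeR's exact test and DESeq2 also called none. Without NC 2, which stood apart, none was called either. At an unadjusted p under 0.05 stood 1 of the 16 members and 2109 of all genes. That member was HIST2H2AC, named after its value was seen, with 9.53 and 11.7 TPM in NC and 3.67 and 2.09 TPM with e1 guides (−1.96 ± 0.51, adjusted p = 0.208). HIST1H2BK had 153 and 124 TPM in NC and 164 and 157 TPM with e1 guides, all above the controls but by less than these differed (0.15 ± 0.13, with an interval of 2 SE from −0.10 to 0.40). HIST1H1C was at 0.08 ± 0.13 and HIST1H2AC at 0.12 ± 0.35, the latter with an interval of −0.57 to 0.82. The NC libraries differed most of all replicate pairs, with a chi-square of 28.8 per degree of freedom against a lowest of 2.19. All 4 gene lists were without a call in this contrast, though by mitochondrial scaling 14 of 26 S phase genes fell. That scaling also called 3 of 25 stem-loop and transcription factors, 2 of 11 replication-independent histones and 2 of 18 chaperones lower. Of all 14859 genes it called 1168 lower and 186 higher.

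The RSEM length of a gene, a mean over its isoforms weighted by abundance, varied over the libraries by over 1.5 times in 6 members. These were HIST1H2AC (1.71 times), HIST2H4A (1.90), HIST1H3D (2.11), HIST1H2BJ (1.90), HIST1H2BN (2.56) and HIST4H4 (4.28). For HIST1H2AC the mean length was 1099 ± 10.4 bases in NC and 1186 ± 82.6 bases under e1 repression (SD, n = 2), and 1126 ± 110.7 in knockout controls against 1042 ± 30.6 bases in knockout (n = 2 and 3). The former ranges, 1092 to 1106 and 1127 to 1244 bases, did not overlap and the latter did, and no test was made. HIST2H4A was at 1302 ± 81.1 bases in NC and 1037 ± 158 bases under e1 repression. For HIST4H4 the pair of ARV-771 libraries gave 448 and 1918 bases, from few counts. HIST1H1C had a fixed length of 732 bases with a single transcript in the tables, as had 31 members in all a single transcript, so no change of isoform could be seen for these.

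The lowest members could not be followed. In the fits above 18 members were not tested under e1 repression, 15 under knockout, 12 under ARV-771 and 28 under e1 activation. HIST2H3A and HIST2H3C, copies of an H3 gene, had equal TPM in every library, at most 0.79 TPM. HIST1H4C, an H4 gene, had 18.7 and 20.4 TPM in NC, 15.9 and 16.4 TPM with e1 guides, 6.35 and 6.65 TPM in knockout controls and 0.98, 0.91 and 4.07 TPM in knockout. Its knockout libraries held 2, 1 and 6 expected counts, so that it was not tested there, and without the filter it was not called (−1.48 ± 0.85, adjusted p = 0.201). HIST1H2AJ, an H2A gene, had 6.96 and 1.37 TPM in knockout controls and 0.00, 1.19 and 0.00 TPM in knockout, and fell only without the filter (−3.33 ± 1.16, adjusted p = 0.0153). These members were named after their values were seen.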

How the data were processed

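Poly-A selected RNA of 17 libraries (NEBNext poly-A module, directional kit) was sequenced. Per the study's methods the authors mapped reads to hg19 using Bowtie2, and RSEM estimated the counts of GENCODE genes (versions and RSEM's strand setting are not given in the sources used here). The deposited tables hold expected counts, TPM and FPKM per gene, of which the authors' FPKM values were not used. No per-sample column was left unmapped (0).

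Expected counts were rounded and tested with edgeR 4.0.16 in R 4.3.3 (TMM, filterByExpr with a minimum count of 10, glmQLFit and glmQLFTest), adjusted over all genes tested by Benjamini and Hochberg, and called where that p was under 0.05 and the fold exceeded 1.5. Each comparison used its own groups, and the interaction used the 9 libraries of both experiments. Standard errors were taken from the log2 fold change and the F statistic. The deposited TPM values give levels and were not tested, save by limma 3.58.1 on log2(TPM + 1) or log2(TPM + 0.1). Other alternatives were RLE, library-size and mitochondrial factors, edgeR's exact test, DESeq2 1.42.0, other filters and folds, all libraries in 1 fit, copies summed, whole counts only, blocking on the replicate number, and leaving out libraries in turn. The code was tested on simulated data.

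The text names the 8 members with the highest mean TPM, up to 8 called members per direction and comparison, up to 4 called genes per list, 6 called members of the interaction, 3 genes on each side of the threshold, members of varying length, and SOX2, and 1 gene that the rule names is not reported here. Members and lists were chosen with earlier results of these data known. Totals of 7260730 to 15781463 counts put the floor of 3 counts at 0.190 to 0.413 CPM. The 10 replicate pairs differed by more than counting error, so none was merged. TH1L (listed with its alias) and PECAM1 were under no such name in the tables.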

Additional observations from a re-analysis of the deposited data

Results flagged for a closer look

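The fold change of 12 members differed between e1 repression and SOX2 knockout by edgeR's interaction test over 9 libraries. As e1 repression minus knockout on the log2 scale, HIST1H2BK differed by −0.843, HIST2H2BE by −1.773, HIST1H2BD by −1.147, HIST2H2AA4 by −1.55, HIST1H4H by −1.177 and HIST1H2BG by −2.41. HIST3H2A differed by −1.633, HIST1H1C by −0.757, HIST1H2BC by −1.324, HIST2H2BD by −3.81 and HIST2H2AA3 by −1.526. HIST2H4A was the one gene that went the other way, at 1.018 (adjusted p = 0.0127), and with the counts of its copy HIST2H4B added it was at 0.58 and not called. HIST3H2A had 22.8 and 19.5 TPM in NC, 15.2 and 15.9 TPM with e1 guides, 17.4 and 17.1 TPM in knockout controls and 43.99, 34.3 and 26.6 TPM in knockout, and it rose under knockout but was not called under e1 repression (−0.41 ± 0.30, adjusted p = 0.278). HIST2H2BD had 0.41 and 0.00 TPM in the knockout controls, lower than in the 4 CRISPRi libraries at 6.04 to 10.7 TPM, and its difference rests on those controls. The experiments also differ in construct, guides and controls, whose part in the differences was not tested. No outlier test was made within groups, which held 2 or 3 libraries each.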

How the results depend on the processing

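Counts of members called moved by over 1.5 times as follows. Under e1 repression (8), DESeq2 gave 4, a mean of at least 50 counts 5, whole counts only 3 and mitochondrial scaling 13, and leaving out a library gave 4 to 7. Under SOX2 knockout (17), whole counts only gave 6, and leaving out a library gave 14 to 16. Under ARV-771 (26), DESeq2 gave 17, library size only 14, limma 10 with either pseudocount, a mean of at least 50 counts 8, whole counts only 11 and mitochondrial scaling 5, and leaving out a library gave 15 (ARV-771 B) to 20. For e1 activation (0), mitochondrial scaling gave 1, and leaving out a library 0 to 0. For the interaction (12), whole counts only gave 4 and mitochondrial scaling 5, and leaving out a library gave 7 (NC 2) to 13. Whole counts only, by its construction, leaves out members with shared reads. The other causes were not tested.

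All 13 reversals were under ARV-771. By mitochondrial scaling H2AFV was at −0.208, H2AFY at −0.203, H2AFZ at −0.219, HIST1H2AC at −0.238, RBBP7 at −0.076, SSRP1 at −0.234, SUPT16H at −0.278, TK1 at −0.032 and TYMS at −0.007. By limma, HIST1H2AC was at −0.139 (pseudocount 0.1) and −0.132 (pseudocount 1), and RBBP7 at −0.041 with both. Of 1401 alternatives for the 76 named results, 1271 kept direction and call, 111 lost the call and 6 gained it. Relative to the main fit, mitochondrial scaling put the median of all genes at 0.353 under e1 repression, −0.359 under e1 activation and 0.309 in the interaction, and library size put it at −0.207 under knockout and 0.168 in the interaction.

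With the replicate number as a block, 9 members were called under e1 repression and 25 under ARV-771. Same-numbered libraries did not deviate together (correlations of 0.02 over 11145 genes and −0.00 over 10852), so the numbers do not pair them. No paired analysis was possible for SOX2 knockout and e1 activation because their groups share fewer than 2 numbers. Depth limits the 20 members with under 200 summed counts.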
